A study of Mus musculus with 40 samples.

Results

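Striatal projection neurons, also called medium spiny neurons, are the GABAergic output cells of the striatum, and 9 marker genes of these cells were followed here through neonatal brain inflammation and injury. The genes were Gpr6, Penk, Drd2 and Adora2a of the indirect pathway, Drd1 and Tac1 of the direct pathway, and Pde10a, Ppp1r1b and Rgs9 of both. They were found by symbol among the array's probe sets, and where a gene had several, the probe set with the highest mean was to be used. Of the 9, 8 were measured, each by 1 probe set, out of 19937 genes in all. Adora2a was not analysed here.

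Total RNA came from brains of C57/Bl6 mice on postnatal day 9 and was hybridised to 40 Affymetrix arrays, 5 in each of 8 groups. Vehicle or the synthetic immunomodulatory peptide IDR-1018 was given 10 h before brain removal in the groups called Vehicle and IDR, and LPS (bacterial lipopolysaccharide, which provokes inflammation) 6 h before removal in the LPS group. The LPS + IDR group had the peptide 4 h before LPS and removal 6 h after it. All LPS/HI mice received LPS followed after 14 h by hypoxia-ischaemia (HI, low oxygen with reduced blood supply), with vehicle or peptide 4 h before LPS and removal 6 h after HI; the left hemisphere is labelled injured and the right uninjured. The uninjured hemispheres therefore also come from mice given LPS and HI, and no group had HI without LPS. The tissue of the first 4 groups is labelled as uninjured brain, with no hemisphere named. The labels do not say that arrays are separate animals or that both hemispheres of a number came from 1 pup, so p-values measure the spread between these samples, which may be technical.

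In the textbook circuit, direct-pathway neurons carry the D1 dopamine receptor and substance P and project to the output nuclei of the basal ganglia. Indirect-pathway neurons carry the D2 dopamine receptor, an adenosine receptor (the product of Adora2a) and enkephalin and project to the external pallidum. D1 and these adenosine receptors raise cyclic AMP, D2 receptors lower it, and the phosphodiesterase PDE10A breaks cyclic nucleotides down. Cyclic AMP acts through protein kinase A on DARPP-32, and through the factor CREB on genes that hold the cAMP response element.

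The 8 markers were all well represented in this whole-tissue RNA. Each lay above 7.71, the median log2 signal over all genes and arrays, on 40 of 40 arrays. Signals are RMA values on the log2 scale, so a difference of 1 is a doubling, and levels are compared only within a probe set. Array medians ran from 6.99 to 7.13, and correlations between arrays from 0.987 to 0.998. In tissue RNA, fewer striatal neurons and less RNA per neuron cannot be told apart.

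Because cyclic AMP signalling is central to these cells, the RefSeq promoters of the members (GRCm38.p6, 250 bases before to 50 after the start) were searched for the element TGACGTCA and the shorter motif TGACG that lies within it, on both strands. Promoter entries matched 6 of the 8 genes. Of these, Gpr6 and Tac1 held the short motif, as did 20.8% of 32851 promoters of this length. The Gpr6 promoter held the full palindrome, present in 1.79% of promoters, which counts as 2 overlapping short motifs, 1 on each strand. No match was found in the entries for Pde10a, Drd1, Drd2 and Rgs9. Sequences are given 5′ to 3′ on the gene's strand for Gpr6 and Pde10a, the genes with the most calls in the comparisons that follow, and for Tac1, which had none. Capitals mark the element in Gpr6 (chr10:41072241-41072540, minus strand), beginning 78 bases before the start, and the short motifs in Tac1 (chr6:7554811-7555110, plus strand), beginning 197 and 43 bases before it and read on the opposite strand. Pde10a is shown for 1 of its starts (chr17:8801495-8801794, plus strand).
Gpr6: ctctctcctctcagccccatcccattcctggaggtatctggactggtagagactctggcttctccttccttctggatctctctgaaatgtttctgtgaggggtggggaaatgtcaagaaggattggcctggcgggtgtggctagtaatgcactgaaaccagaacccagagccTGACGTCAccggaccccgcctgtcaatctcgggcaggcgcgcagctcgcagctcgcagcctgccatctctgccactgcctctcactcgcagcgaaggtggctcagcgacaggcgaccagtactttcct
Tac1: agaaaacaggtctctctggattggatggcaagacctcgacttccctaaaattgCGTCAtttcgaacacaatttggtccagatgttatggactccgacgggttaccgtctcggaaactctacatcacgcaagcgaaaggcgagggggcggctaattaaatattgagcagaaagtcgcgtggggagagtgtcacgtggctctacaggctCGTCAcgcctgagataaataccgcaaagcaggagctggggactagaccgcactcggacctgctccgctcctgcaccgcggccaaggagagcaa
Pde10a: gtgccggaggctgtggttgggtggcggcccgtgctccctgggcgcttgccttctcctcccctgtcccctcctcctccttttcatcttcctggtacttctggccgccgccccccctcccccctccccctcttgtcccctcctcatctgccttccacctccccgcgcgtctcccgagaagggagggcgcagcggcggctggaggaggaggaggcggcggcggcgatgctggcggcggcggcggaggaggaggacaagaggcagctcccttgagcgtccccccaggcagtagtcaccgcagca
A match is a stretch of letters, and binding was not measured here.

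The injured and uninjured hemispheres were compared to show how the marker transcripts stood 6 h after HI. In what follows, fell and rose mean lower and higher in the injured than in the uninjured hemisphere. Without peptide, all 8 markers had a lower mean in the injured hemisphere, where 45.3% of all genes lay below 0. In the fit without pairs only Gpr6 passed the test (limma adjusted p under 0.05 over 19937 genes). The background was 0.813% of genes called lower and 2.99% called in either direction. With the array number as a block 4 passed, where the background was also larger, at 3.89% called lower and 10.2% in either direction. With peptide, all 8 again had the lower mean on the injured side (50.1% of all genes), and Gpr6, Pde10a and Penk passed, against 0.702% of genes called lower and 2.50% in either direction. That count of 3 became 7 in a fit to all 8 groups (7.18% of all genes called), 5 with array weights (4.28%), and 2 to 4 on leaving out 1 array. The median log2 difference of the 8 was -0.23 without and -0.33 with peptide, beside 0.01 and 0.00 over all genes. Averaged over the 8 markers, log2 signal per array was 9.65 to 9.74 in injured hemispheres without peptide and 9.55 to 9.65 with it. The uninjured hemispheres ran from 9.87 to 10.02 and from 9.84 to 10.03, above every injured array.

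**Figure D1:**
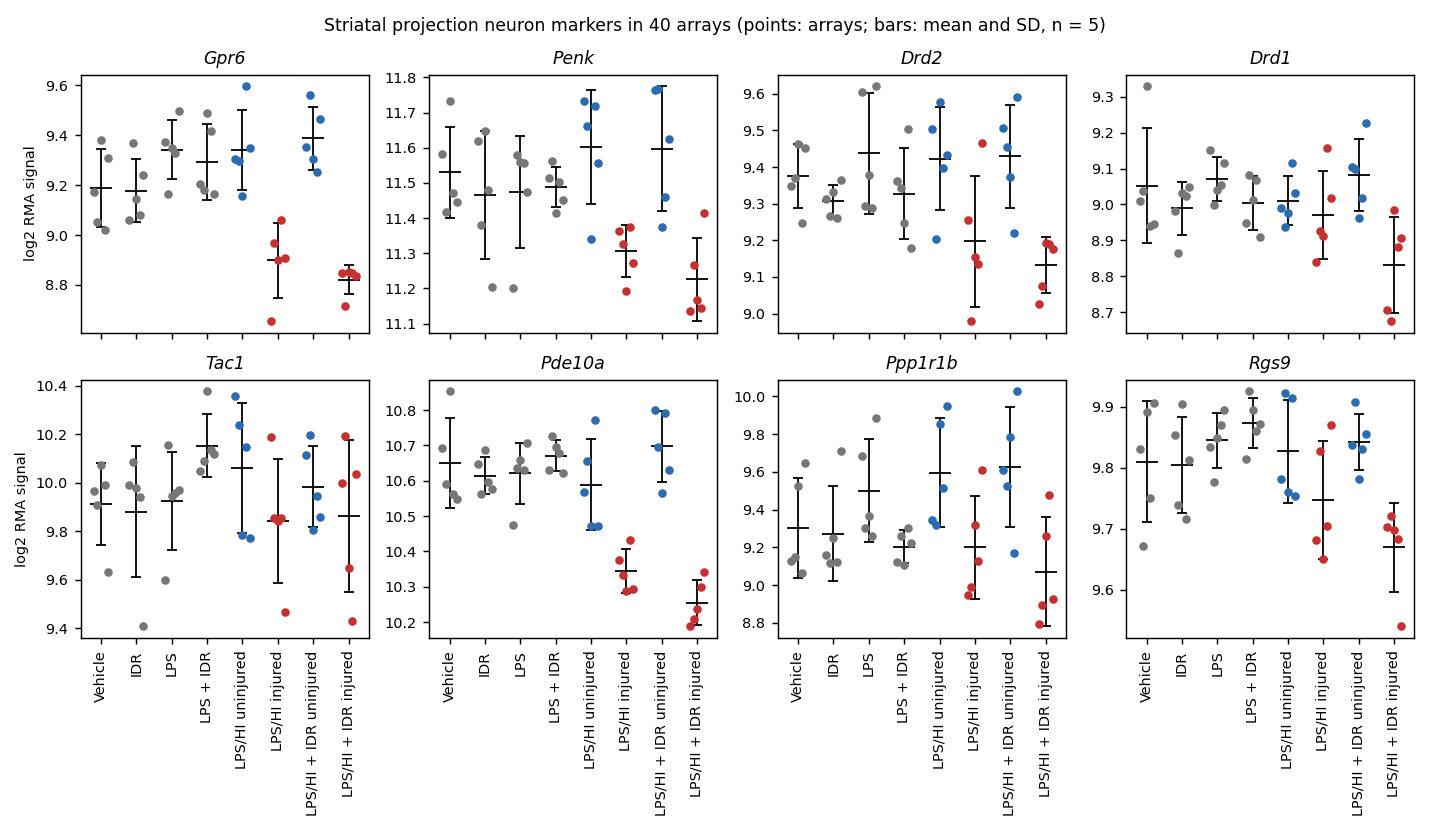
Log2 RMA signal (vertical axes, each panel on its own range) of the 8 markers in the 8 groups. Points are arrays and bars the mean and SD of 5 arrays, with injured hemispheres in red, uninjured hemispheres in blue and the other groups in grey; in Gpr6 and Pde10a every injured array lies below every uninjured one.

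Gpr6, which encodes a constitutively active receptor that raises cyclic AMP in indirect-pathway neurons, had the clearest difference of the 8. In uninjured hemispheres without peptide its log2 signal was 9.30, 9.30, 9.16, 9.60 and 9.35 in arrays 1 to 5. In injured hemispheres it was 8.66, 8.97, 8.90, 9.06 and 8.91. Every injured array was below every uninjured array. The means were 9.34 ± 0.16 and 8.90 ± 0.15 (SD, n = 5), a log2 fold change of -0.44 ± 0.09 (SE, 95% interval -0.64 to -0.25, limma adjusted p = 0.0197), so that the signal fell by 26.4%. This call rested on the lowest array: without injured replicate 1 the log2 fold change was -0.38 and the adjusted p 0.0524.

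With peptide, Gpr6 also fell, in the other set of arrays. Uninjured signals were 9.35, 9.56, 9.31, 9.25 and 9.46, and injured signals 8.85, 8.72, 8.85, 8.85 and 8.84. The groups did not overlap, and 4 of the 5 injured arrays lay between 8.84 and 8.85. The log2 fold change was -0.57 ± 0.07 (limma adjusted p = 0.00119), the signal having fallen 1.48-fold.

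Penk encodes proenkephalin, the precursor of the opioid peptide of indirect-pathway neurons. Without peptide its uninjured signals were 11.73, 11.66, 11.34, 11.72 and 11.56, and its injured signals 11.36, 11.33, 11.19, 11.38 and 11.27. The injured arrays formed a narrow band that overlapped only the lowest uninjured array, replicate 3. The log2 difference of -0.30 ± 0.08 did not pass without pairs (limma adjusted p = 0.0671) and passed with the number as a block (adjusted p = 0.00884). Without uninjured replicate 3, and without pairs, it was -0.36, with a limma adjusted p of 0.0145. This was the only 1 of 10 fits leaving out 1 array that called Penk, the adjusted p reaching 0.179 in the others. With peptide, the uninjured arrays read 11.76, 11.77, 11.37, 11.46 and 11.62 and the injured arrays 11.14, 11.27, 11.17, 11.14 and 11.41. Penk fell by 0.37 ± 0.09 on the log2 scale (limma adjusted p = 0.0458), although the highest injured array exceeded the lowest uninjured one. The call was lost on leaving out any 1 of 8 of the 10 arrays (adjusted p 0.0537 to 0.122) and was kept only without uninjured replicate 3 or injured replicate 5.

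Drd2, the inhibitory dopamine receptor of the indirect pathway, had means of 9.42 ± 0.14 in uninjured and 9.20 ± 0.18 in injured hemispheres without peptide, with overlapping groups. Its injured arrays read 9.25, 8.98, 9.15, 9.14 and 9.46, the last of them above 3 of the 5 uninjured arrays. The log2 difference was -0.23 ± 0.09 (limma adjusted p = 0.267). With peptide, uninjured signals were 9.51, 9.46, 9.37, 9.22 and 9.59 and injured signals 9.03, 9.08, 9.19, 9.19 and 9.18, without overlap. That difference of -0.30 ± 0.08 did not pass (adjusted p = 0.0567).

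Of the direct-pathway genes, Drd1, the dopamine receptor coupled to cyclic AMP production, had the smallest difference of the 8 without peptide. Its means were 9.01 ± 0.07 in uninjured and 8.97 ± 0.12 in injured hemispheres, a log2 difference of -0.04 with a 95% interval from -0.19 to 0.11. With peptide the uninjured arrays read 9.10, 9.10, 8.96, 9.02 and 9.23 and the injured arrays 8.71, 8.68, 8.99, 8.88 and 8.91. The injured replicate 3 overlapped the uninjured range, and the difference of -0.25 ± 0.08 did not pass (limma adjusted p = 0.115).

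Tac1 encodes the precursor of substance P and neurokinin A. Its signals spread widely within groups: uninjured arrays without peptide read 10.36, 10.24, 9.78, 10.15 and 9.77, and injured arrays 10.19, 9.86, 9.84, 9.85 and 9.47. The log2 difference was -0.22 ± 0.14 (limma adjusted p = 0.519). With peptide the injured arrays ran from 9.43 to 10.19 around the uninjured range of 9.81 to 10.20, with a difference of -0.12 ± 0.13 (adjusted p = 0.776). The 95% interval, -0.41 to 0.16, holds differences as large as those of Penk and as small as 0.

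Pde10a, the dual-specificity cyclic nucleotide phosphodiesterase abundant in both kinds of projection neuron, was low in every injured hemisphere. Without peptide the uninjured signals were 10.57, 10.66, 10.47, 10.77 and 10.47 and the injured signals 10.38, 10.33, 10.29, 10.43 and 10.29. The groups did not overlap, and yet the log2 difference of -0.24 ± 0.07 did not pass without pairs (limma adjusted p = 0.0912) and passed with the number as a block (adjusted p = 0.0167). With peptide the uninjured signals were 10.80, 10.69, 10.57, 10.79 and 10.63 and the injured signals 10.19, 10.21, 10.24, 10.30 and 10.34. The gap between the lowest uninjured and the highest injured array was wider here, and Pde10a fell by 0.44 ± 0.07 on the log2 scale (limma adjusted p = 0.00361).

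Ppp1r1b encodes DARPP-32, the protein phosphatase 1 inhibitor that integrates dopamine signals. Without peptide its uninjured arrays read 9.34, 9.32, 9.85, 9.51 and 9.95 and its injured arrays 8.95, 8.99, 9.32, 9.13 and 9.61. The groups overlapped although every injured array was below the uninjured array of its own number, by 0.33 to 0.54. The log2 difference was -0.40 ± 0.14 (limma adjusted p = 0.191), which passed with the number as a block (adjusted p = 0.00233). With peptide the arrays read 9.61, 9.52, 9.78, 9.17 and 10.03 uninjured and 8.80, 8.89, 9.26, 9.48 and 8.93 injured. In number 4 the injured array was above the uninjured one, although equal numbers were not taken as pairs with peptide. The difference of -0.55 ± 0.16, with an interval from -0.89 to -0.22, did not pass (limma adjusted p = 0.0856).

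Rgs9, a regulator that speeds the shut-off of G protein signals at dopamine and opioid receptors, differed little without peptide (-0.08 ± 0.07, limma adjusted p = 0.684). With peptide its injured arrays read 9.70, 9.72, 9.70, 9.68 and 9.54, all below the lowest uninjured array at 9.78. That difference was -0.17 ± 0.06 (adjusted p = 0.161). Groups that did not overlap were thus found for Gpr6 and Pde10a without peptide, where 5.03% of all genes had such groups and 1.61% were lower, and for Gpr6, Pde10a, Drd2 and Rgs9 with peptide, where 5.12% had and 1.94% were lower.

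**Figure D2:**
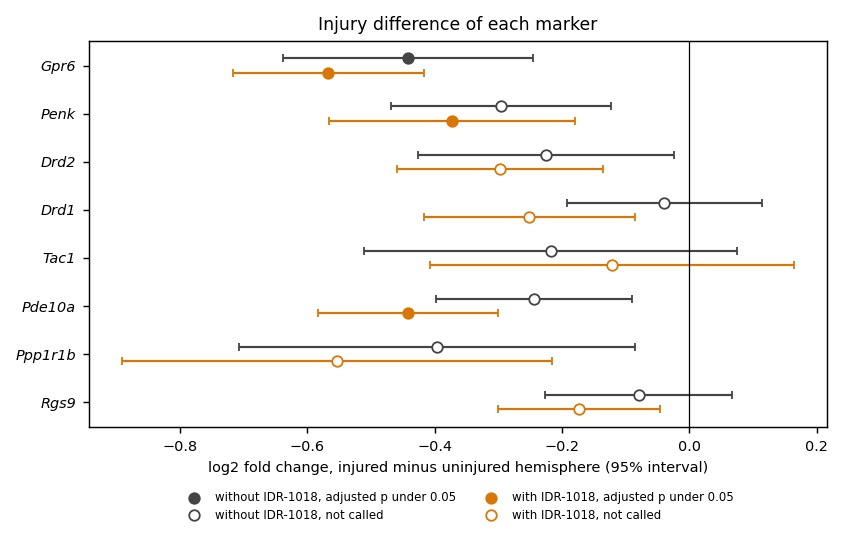
Log2 fold change of the injured against the uninjured hemisphere (horizontal axis) for each marker without (grey) and with (orange) IDR-1018. Points are limma estimates and bars 95% intervals, filled where the adjusted p was under 0.05: Gpr6 in both sets, and Penk and Pde10a with peptide; all 16 estimates lie below 0.

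The arrays of the LPS/HI groups carry numbers 1 to 5 in both hemispheres. Without peptide, arrays of the same number deviated together from their group means, and the numbers were taken as pairs. With the number as a block, 4 markers passed: Ppp1r1b (limma adjusted p = 0.00233), Gpr6 (0.00373), Penk (0.00884) and Pde10a (0.0167). The background was then 3.89% of genes called lower and 10.2% in either direction. In these 4 genes all 5 injured arrays were below their partners, and in Drd2, Drd1, Tac1 and Rgs9 4 of 5 were.

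**Figure D3:**
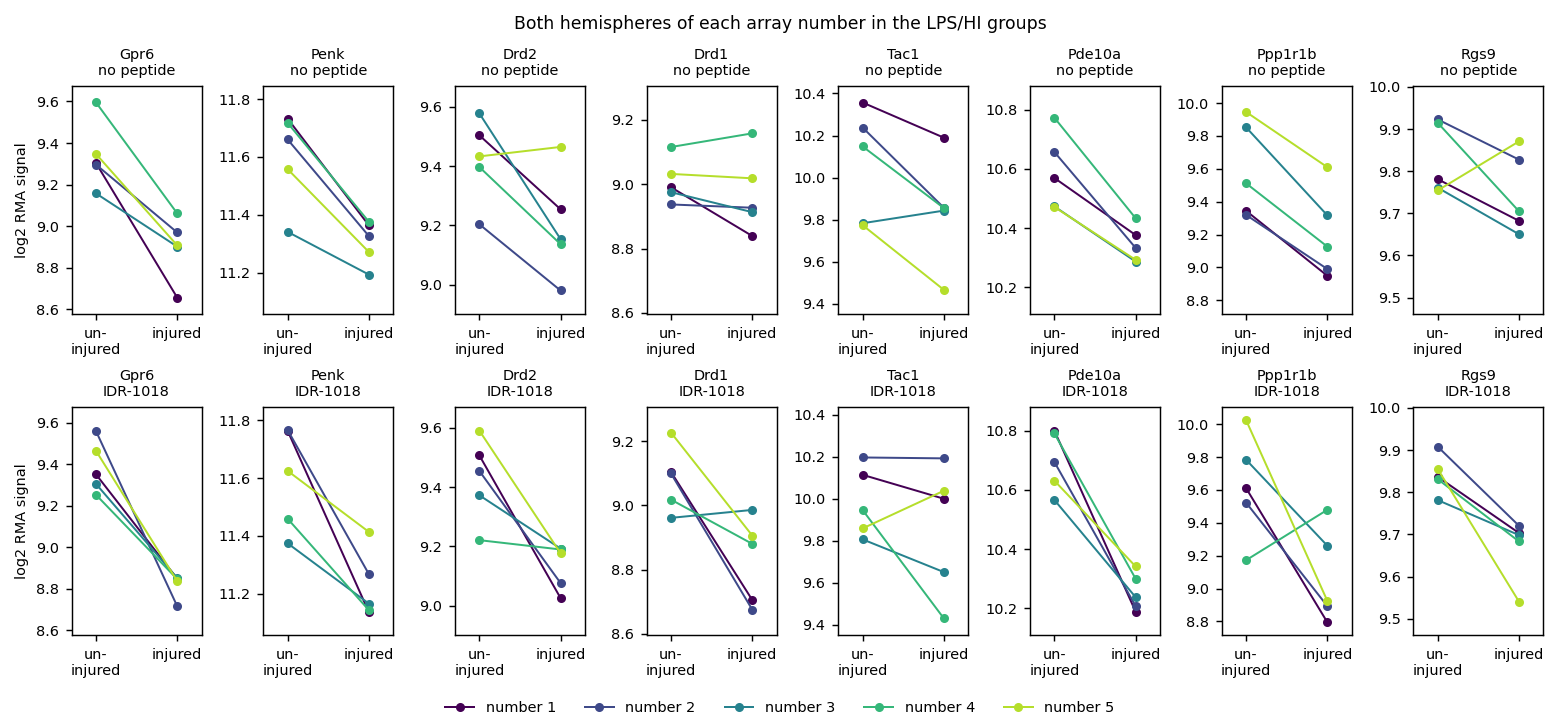
Log2 RMA signal (vertical axes, own range per gene) of the uninjured and injured array of each number, without peptide in the upper and with IDR-1018 in the lower row. Lines join arrays of the same number, which were taken as pairs only without peptide; Gpr6, Penk and Pde10a are lower in the injured array in all 10 cases and Ppp1r1b in 9.

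The injury differences with and without peptide were set against each other in 1 model of 20 arrays. No marker passed (limma adjusted p = 1 for all 8, with 2 at an unadjusted p under 0.05). The 2 were Pde10a, whose injury difference was further below 0 with peptide (-0.20 ± 0.09, limma unadjusted p = 0.0436), and Drd1 (-0.21 ± 0.10, limma unadjusted p = 0.0498). Ordered by p, they had ranks 305 and 360 of 19937 genes. With the number as a block in that model, 0 of 8 passed again (limma adjusted p = 1 for all 8), and Pde10a (limma unadjusted p = 0.0291) and Drd1 (limma unadjusted p = 0.0378) were again under 0.05 before adjustment. That block was applied in both sets, although the numbers were not taken as pairs with peptide. Calls in 1 set and not the other are therefore not shown to differ between the sets. Within the injured hemispheres the peptide differences ran from -0.14 for Drd1 to 0.02 for Tac1, and within the uninjured hemispheres from -0.08 for Tac1 to 0.11 for Pde10a. In these 2 comparisons 0 of 8 markers and 0% of all genes were called by limma, and 0 of 8 were at an unadjusted p under 0.05.

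Neither LPS nor the peptide alone moved a marker past the threshold. Against Vehicle, LPS gave log2 differences from -0.06 for Penk to 0.20 for Ppp1r1b, and 0 of 8 passed, where 0.833% of all genes did. IDR-1018 gave values from -0.07 for Drd2 to -0.005 for Rgs9, below 0 in all 8 markers (59.1% of all genes were below 0), and 0 of 8 markers and 0% of all genes were called. None of the 8 was at an unadjusted p under 0.05 in either comparison. For Gpr6 the LPS interval ran from -0.02 to 0.33, and for Pde10a from -0.18 to 0.12. Both intervals describe brains taken 6 h after LPS. The LPS/HI hemispheres were taken later, from mice that all had LPS, and the part of LPS in their differences was not tested.

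LPS + IDR against LPS called no gene at all (0%). In it 2 markers of the projection neurons stood at an unadjusted p under 0.05, in opposite directions. Ordered by p, Ppp1r1b had rank 1020 and Tac1 rank 1737 of 19937 genes, so values this small were common. Ppp1r1b in the LPS arrays read 9.68, 9.30, 9.37, 9.26 and 9.89 and in the LPS + IDR arrays 9.12, 9.26, 9.11, 9.30 and 9.22. LPS replicates 1 and 5 were high, and only LPS replicate 4 lay within the range of the other group. The log2 difference was -0.30 ± 0.11 (limma adjusted p = 0.327). Tac1 read 9.60, 10.15, 9.94, 9.96 and 9.97 and 10.05, 10.09, 10.38, 10.13 and 10.12, with LPS replicate 2 alone inside the LPS + IDR range and a difference of 0.23 ± 0.09 (adjusted p = 0.342). Against IDR alone, LPS + IDR again gave a positive value for Tac1 (0.27 ± 0.11, adjusted p = 0.399). There 0 of 8 markers and 1.47% of all genes passed, and Tac1 was the 1 marker at an unadjusted p under 0.05. Its rank by p was 1485 of 19937 genes. The test of whether peptide altered the LPS difference called 0 of the 8 (0.00502% of all genes, by limma), and the lowest limma unadjusted p was 0.122, for Tac1.

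The LPS/HI hemispheres were also set against the brains without HI, which share the strain and age but not the times, and for which the labels name no hemisphere. Vehicle and IDR brains also had no LPS. LPS, HI, hemisphere and timing therefore cannot be told apart here. Injured hemispheres were below Vehicle in all 8 markers (54.5% of all genes), and Pde10a passed at -0.30 ± 0.07 (limma adjusted p = 0.0146), where 8.34% of all genes passed and 3.89% were called lower. That call was lost with Xist level, a marker of female cells, as a covariate (-0.29 ± 0.08, limma adjusted p = 0.0568). Gpr6 was at -0.29 ± 0.09 (limma adjusted p = 0.0622) and Ppp1r1b at -0.10 ± 0.14 (adjusted p = 0.757), with overlapping groups. In uninjured hemispheres against Vehicle these 2 were at 0.15 ± 0.09 and 0.29 ± 0.14 (limma adjusted p = 0.888 and 0.78). There 2 of 8 markers were below 0, beside 63.6% of all genes. With peptide, injured hemispheres were below IDR in all 8 (52.3% of all genes), with Gpr6 and Pde10a called, both at -0.36 (SE 0.07 and 0.06, adjusted p = 0.00826 and 0.00244), where 5.87% of all genes passed and 2.35% were called lower. Uninjured hemispheres had no marker past the threshold against Vehicle (0.436% of all genes) or, with peptide, against IDR (0.201%), with 0 and 2 markers at a limma unadjusted p under 0.05. In the latter, where 53.1% of all genes were below 0, all 8 values were above it, from 0.04 for Rgs9 to 0.35 ± 0.15 for Ppp1r1b (adjusted p = 0.829), with Gpr6 at 0.21 ± 0.08 (adjusted p = 0.726). Ordered by p in uninjured hemispheres with peptide against IDR, Gpr6 had rank 512 and Ppp1r1b rank 711 of 19937 genes. All comparisons with brains without HI share the LPS/HI arrays with those between hemispheres and are no separate support for them.

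**Figure D4:**
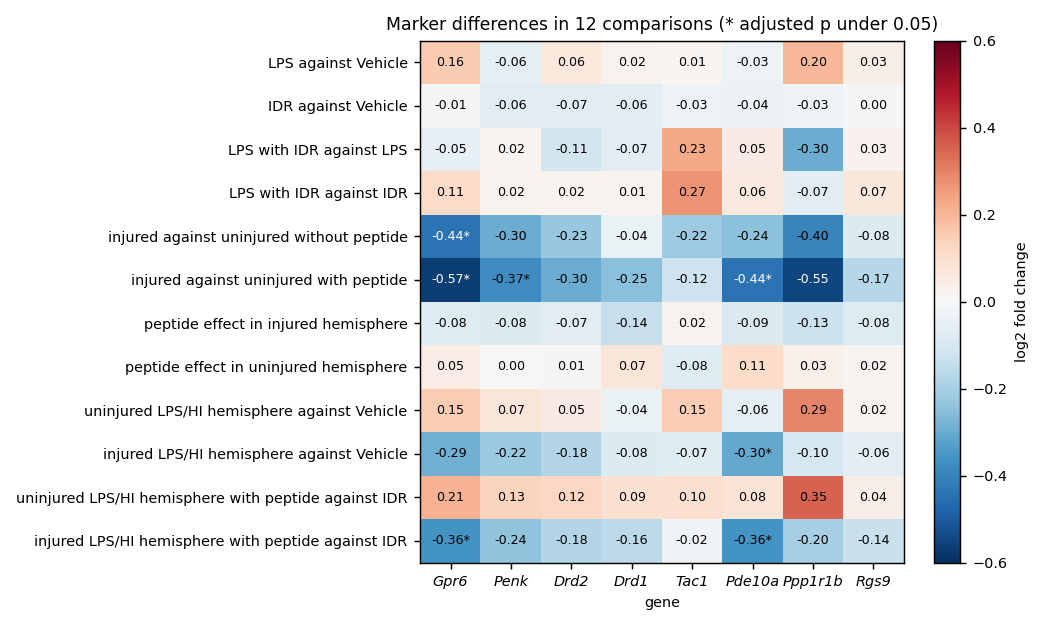
Log2 fold change (colour and printed value) of each marker (columns) in the 12 comparisons of groups (rows), with an asterisk where the limma adjusted p was under 0.05. The 7 asterisks fall in the 4 rows with injured hemispheres against uninjured hemispheres, Vehicle or IDR, and Gpr6 and Pde10a hold 6 of them.

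Ordered by group mean, Gpr6 ran from 9.39 ± 0.12 in uninjured hemispheres with peptide through 9.34 ± 0.12 in LPS, 9.34 ± 0.16 in uninjured hemispheres, 9.29 ± 0.15 in LPS + IDR, 9.19 ± 0.16 in Vehicle and 9.18 ± 0.13 in IDR. The only step between neighbours wider than both SDs led from there to the injured hemispheres, at 8.90 ± 0.15 and, with peptide, 8.82 ± 0.06. Pde10a had 6 groups with means from 10.59 ± 0.13 to 10.70 ± 0.10, and a step wider than both SDs led down to the injured hemispheres at 10.34 ± 0.06. The step from there to 10.26 ± 0.06 with peptide was also wider than both SDs. The 6 upper Penk means ran from 11.47 ± 0.18 to 11.60 ± 0.16, above 11.31 ± 0.08 (injured) and 11.23 ± 0.12 (injured with peptide). Drd2 ran from 9.44 ± 0.16 in LPS to 9.13 ± 0.08 in injured hemispheres with peptide, in steps within the larger SD of each 2 neighbours. Drd1 means ran from 9.08 ± 0.10 to 8.83 ± 0.13, also with the injured hemispheres lowest, at 8.97 ± 0.12 and 8.83 ± 0.13. Rgs9 went from 9.87 ± 0.04 in LPS + IDR to 9.75 ± 0.10 in injured hemispheres and 9.67 ± 0.07 in those with peptide. In Ppp1r1b, injured hemispheres without peptide (9.20 ± 0.27) were level with LPS + IDR (9.20 ± 0.09), above 9.07 ± 0.29 in injured hemispheres with peptide. Tac1 ran from 10.15 ± 0.13 in LPS + IDR to 9.84 ± 0.26 in injured hemispheres, with IDR beside these at 9.88 ± 0.27.

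Other genes listed as markers of striatal projection neurons were mostly below 0 in the injured hemisphere too. Which cells gave these transcripts was not measured in this tissue RNA. Of 27 measured further striatal projection neuron genes, 25 were below 0 without peptide (median log2 difference -0.16), beside 45.3% of all genes. Past the threshold 1 fell, where 0.813% of all genes did: Cnr1, the cannabinoid receptor of striatal terminals, at -0.27 ± 0.06 (limma adjusted p = 0.038). With the number as a block, 9 fell and 1 rose, where 3.89% of all genes were called lower and 6.3% higher. The 9 included Adcy5, the striatal adenylyl cyclase, at -0.22 (adjusted p = 0.0314), and Bcl11b, a transcription factor of these neurons, at -0.22 (adjusted p = 0.017). Dclk3, a kinase, rose by 0.23 (adjusted p = 0.041). With peptide, 24 of 27 were below 0 (median -0.19), beside 50.1% of all genes, and 3 fell, where 0.702% of all genes did. These were Rarb, a retinoic acid receptor, at -0.37 ± 0.07, Actn2, an actin cross-linker, at -0.35 ± 0.08, and Foxp1, a transcription factor, at -0.28 ± 0.07.

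Of 13 dopamine and cyclic AMP signalling partners, 0 passed in either set without a block (3 in each at a limma unadjusted p under 0.05), Prkar2b, a regulatory subunit of protein kinase A, having the smallest p without peptide (-0.26 ± 0.09, limma adjusted p = 0.173). Of 6 receptors for the members' peptides, 0 passed and 0 were at an unadjusted p under 0.05. Of 16 paralogues, 0 passed (5 without and 1 with peptide at an unadjusted p under 0.05), and the 2 with the smallest p without peptide were Drd5, the other D1-class receptor, at -0.27 ± 0.07 (adjusted p = 0.0553) and Gpr12, a close relative of Gpr6, at -0.36 ± 0.10 (adjusted p = 0.0705). Both passed with the number as a block. Unadjusted p-values under 0.05 were common among all genes in these comparisons. Without peptide, Drd2 at a limma unadjusted p of 0.0306 had rank 2286 by p of 19937 genes. With peptide, Rgs9 at a limma unadjusted p of 0.0113 had rank 1406. The share of all genes under 0.05 is not given here, so the list counts are not set against it.

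Markers of other cells moved in the same arrays. Of 12 cortical projection neuron genes, 2 fell without peptide, Neurod6 at -0.73 ± 0.14 (limma adjusted p = 0.0112) and Fezf2 at -0.35 ± 0.08, and with peptide Rorb and Mef2c were added. With the number as a block 6 fell without peptide, these 4 with Slc17a7 and Tbr1. Of all genes, 3.89% were called lower with that block and 0.813% without it. The mean log2 signal of the cortical list was 10.12 to 10.34 in injured and 10.39 to 10.49 in uninjured hemispheres without peptide, and 10.16 to 10.32 against 10.44 to 10.56 with it. The pan-neuronal list, with 0 of 10 called by limma (1 without and 0 with peptide at an unadjusted p under 0.05, and 2 called without peptide with the number as a block), was at 11.64 to 11.73 against 11.73 to 11.87 without peptide, and at 11.61 to 11.70 against 11.66 to 11.85, overlapping, with it. Of 7 GABAergic and 8 striatal interneuron genes 0 were called and 0 were at an unadjusted p under 0.05, and the list means of their arrays overlapped between hemispheres. In other lists without peptide, P2ry12 of microglia fell (-0.45 ± 0.11), Pdgfra of oligodendrocyte precursors fell (-0.35 ± 0.09) and Pecam1 of endothelium rose (0.39 ± 0.08). Each was the only call in its list without a block, where 0.813% of all genes were called lower and 2.18% higher. Their lists were mixed in direction, with 4 of 9 microglial, 5 of 9 oligodendrocyte and 2 of 8 endothelial genes below 0. With the number as a block, Slco1a4 of endothelium was called lower (-0.51, limma adjusted p = 0.00166), opposite to Pecam1. Siglech of microglia and Cspg4 of oligodendrocyte precursors were also called lower, and Gfap of astrocytes higher. That block called 6.3% of all genes higher. With peptide, Pecam1 (0.46 ± 0.11) and Cdh5 (0.36 ± 0.07) of endothelium rose, and 0 microglial or oligodendrocyte genes were called, with 3 and 2 at a limma unadjusted p under 0.05. Of all genes, 1.8% were called higher and 0.702% lower with peptide. There 4 of 8 endothelial, 7 of 9 microglial and 4 of 9 oligodendrocyte genes were below 0. The counts at an unadjusted p under 0.05 in these lists were not set against the share of all genes at that cutoff. No log2 signal was 0, the lowest of any probe set on any array being 1.84. The part of these cells in the differences of the 8 markers was not tested.

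Within groups, the markers did not vary as 1 block. Correlations were computed over 40 arrays after subtracting each group's mean, for 28 pairs of markers, with permutation p-values from 100000 shuffles within groups. They were above 0 in 19 pairs. Ppp1r1b and Tac1 had the most negative value, r = -0.75 (Spearman's rho = -0.69, permutation p adjusted over 28 pairs 0.00028 and 0.00084), and r = -0.69 without the 2 arrays farthest out. The sign was negative in 8 of 8 groups. Drd2 and Ppp1r1b gave r = 0.70 (rho = 0.67), Pde10a and Penk r = 0.68 (rho = 0.66), and Penk and Tac1 r = 0.64 (rho = 0.59), with adjusted permutation p-values of 0.00028, 0.00049 and 0.00049 for r and 0.00084, 0.00103 and 0.00168 for rho. Without the 2 farthest arrays these were 0.66, 0.65 and 0.54. Pairs within 1 pathway included values near or below 0: Drd1 and Tac1 gave r = -0.24 (rho = -0.32, adjusted permutation p = 0.284 and 0.159) and Penk and Drd2 r = -0.07 (rho = 0.01, adjusted p = 0.762 and 0.961). Arrays of 1 number in the LPS/HI groups may not be independent, and all genes share each array's RNA.

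**Figure D5:**
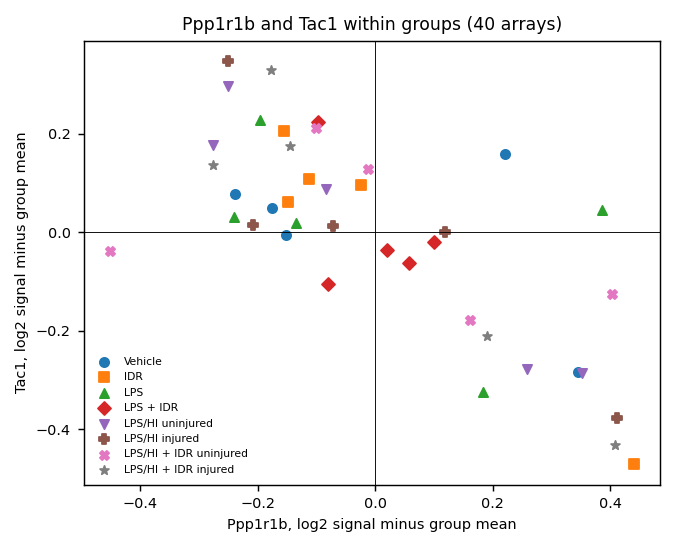
Tac1 (vertical axis) against Ppp1r1b (horizontal axis), each as log2 signal minus the mean of its group, for 40 arrays. Colours and shapes give the 8 groups; arrays above their group's mean for Ppp1r1b tend to be below it for Tac1, r = -0.75.

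Ppp1r1b and Tac1 also split over the marker lists, in 34 correlations of the same kind. Ppp1r1b went with the mean of the cortical projection neuron list (r = 0.82, rho = 0.82, adjusted permutation p = 0.000113 and 8.5e-05), the further striatal list (r = 0.83, rho = 0.82) and the interneuron list (r = 0.79, rho = 0.81), with the same adjusted p-values. The p-values before adjustment are the smallest that 100000 shuffles can give. Without the 2 arrays farthest out, r was 0.86, 0.81 and 0.76. Tac1 went against the cortical list (r = -0.67, rho = -0.64, adjusted permutation p = 0.00068 and 0.000793, r = -0.67 without the 2 farthest arrays) and with the endothelial list (r = 0.65, rho = 0.63, adjusted p = 0.00068 and 0.00107, and r = 0.61). Tac1 also went against the further striatal list (r = -0.48, rho = -0.41, adjusted permutation p = 0.012 and 0.0447, and r = -0.61). The same held for the interneuron list (r = -0.55, rho = -0.52, adjusted permutation p = 0.00452 and 0.00891, and r = -0.44). The dopamine and cyclic AMP signalling list split the same way, with Tac1 at r = 0.69 (rho = 0.65, adjusted permutation p = 0.000765 and 0.0011, r = 0.62 without the 2 farthest arrays). Ppp1r1b went against that list at r = -0.59 (rho = -0.53, adjusted permutation p = 0.00363 and 0.012, and r = -0.53). The share of each brain region in a sample was not measured, and its part in these correlations was not tested.

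The 8 genes outside the members whose deviations over 40 arrays were most like the members' mean were Actn2 (r = 0.82), Pde7b, Rasl10a, Mas1, Scn4b, Rnase2a, Gde1 and Tdrp (r = 0.72). Actn2 and Scn4b, a sodium channel subunit, stand in the striatal list. Leaving out 1 group kept 3 to 7 of the 8 among the first 8, with 3 kept without Vehicle. Between hemispheres, Mas1, a receptor for angiotensin 1-7, fell in both sets, by 0.35 ± 0.08 without peptide (limma adjusted p = 0.0304) and 0.45 ± 0.10 with it (adjusted p = 0.0317). Pde7b, a cyclic AMP phosphodiesterase, fell by 0.37 ± 0.08 without peptide (adjusted p = 0.0212) and was at -0.37 ± 0.12 with it (adjusted p = 0.141). Rasl10a was at 0.26 ± 0.10 and 0.16 ± 0.13, in the opposite direction (adjusted p = 0.22 and 0.655).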

How the data were processed

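The deposited table gives a log2 RMA signal for each probe set on each array; the submitters' processing notes name RMA and the package affy, without versions. RMA equalises arrays, so a shift shared by all genes would not be visible. Of 34760 probe sets, 21640 carried 1 gene symbol and were kept, 1321 carried several and 11799 none; 21553 had a gene ID in RefSeq genes of GRCm38.p6. The highest-mean probe set per gene left 19937 genes, with no filter.

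Groups were compared with limma 3.58.1 in R 4.3.3, with data.table at version 1.17.8, on the arrays compared, with Benjamini-Hochberg adjustment over all genes and a threshold of 0.05. Errors are SE for differences and SD for means. The number of arrays limits precision: the median 95% half-width was 0.15 to 0.18 in the 12 comparisons and 0.22 to 0.25 in the 2 interactions. The procedure was also run on simulated data, with noise drawn independently for each gene and array. That simulation lacked the shared deviations of same-numbered arrays. Its recovery of differences as small as those of the markers is not given here. The members and lists were chosen with earlier results of these data known. Of each list, called genes were named, at most 4 by fold change, or the 2 with the smallest p where none was called; in the count with the block, examples were chosen after their values were seen. Within-group permutation p-values were added after seeing the data. Pairing was accepted where every correlation of same-numbered arrays' deviations over all genes exceeded 0.1. Between hemispheres without peptide these were 0.392 to 0.646, each array closest to its own number, so the pairing there comes from the data and not the labels. Injured hemispheres against Vehicle also passed this criterion (0.116 to 0.443), although these are separate brains and 3 of 5 arrays were closest to their own number. The block left 1 marker called there (Pde10a, limma adjusted p = 0.0204).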

Additional observations from a re-analysis of the deposited data

Results flagged for a closer look

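Within each group of 5 arrays, the highest and lowest value of each marker was tested for distance from the rest by Dixon's criterion. It marked 7 of 64 groups, where chance marks about 1 in 20. Gpr6 was lowest in injured hemispheres with peptide in replicate 2, at 8.72, and Rgs9 in the same group in replicate 5, at 9.54. Penk was lowest in LPS replicate 1, at 11.20. Drd1 was highest in Vehicle replicate 3, at 9.33. In IDR replicate 5, Ppp1r1b was highest at 9.71 and Tac1 lowest at 9.41. Tac1 was highest in LPS + IDR replicate 3, at 10.38.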

How the results depend on the processing

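All 8 markers stayed below 0 in both comparisons of hemispheres under all 18 alternatives (fit to all 8 groups, low-signal filter, median centring, mean of probe sets, array weights, trend and robust moderation, Xist as covariate, replicate block, and each array left out). The count of called markers did move, given here with the share of all genes called in either direction. Without peptide it was 1 in the main analysis (2.99%), 3 in the fit to all 8 groups (7.18%), 3 with array weights (7.26%), 2 with trend and robust moderation (3.02%), 4 with the replicate block (10.2%), and 0 to 2 on leaving out 1 array (1.43% to 3.22%). With peptide it was 3 (2.50%), and 7 in the fit to all 8 groups (7.18%, 2.70% lower), 5 with array weights (4.28%), 4 with median centring (2.41%), 4 with Xist as covariate (5.43%), and 2 to 4 on leaving out 1 array (1.15% to 2.58%); with the replicate block it was 3 (4.48%), where the numbers were not taken as pairs (correlations 0.0884 to 0.589; 3 of 5 arrays closest to their own number). For injured hemispheres against Vehicle it was 1 (8.34%), then 2 in the fit to all 8 groups (11.1%), 2 with median centring (8.24%), 3 with array weights (16.1%), 3 with trend and robust moderation (9.73%), 0 with Xist as covariate (4.60%), 1 with the replicate block (11.5%), and 1 to 2 on leaving out 1 array (4.84% to 9.02%). For injured hemispheres with peptide against IDR it was 2 (5.87%), but 1 with the replicate block (2.50%; Gpr6 adjusted p = 0.0642), 3 with median centring (6.33%), 3 with array weights (10.2%), and 2 to 3 on leaving out 1 array (3.54% to 6.00%). The causes of these moves were not tested. All other comparisons stayed at 0 called under every alternative run. The planned use of other probe sets gave no value, since each marker had 1.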
